A study of Macaca mulatta with 11 samples.

Results

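The genes described here build and run the mitotic spindle: kinesins, centromere and kinetochore proteins, spindle checkpoint and entry kinases, condensins and centrosome proteins. They were chosen by gene symbol, from the name stems KIF, CENP, BUB, AURK, PLK, NUF2, SPC2, NCAP, CDC20, CDC25, TPX2, ANLN, CKAP, CEP, NEK, PTTG and a few single genes, together with MKI67, MAD2L1, FOXM1, TOP2A and BIRC5. Of 14132 genes with a symbol on the array, 115 were members, each read from its brightest probe set. A symbol rule takes in genes by name, and 4 members that were placed in none of the roles used here are given apart at the end. Some well-known spindle genes, among them BIRC5, PLK1, BUB1, NDC80 and KIF11, are not analysed here.

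RNA was measured in cumulus cells of rhesus monkeys (Macaca mulatta), the somatic cells around the oocyte in the cumulus-oocyte complex, on 11 Affymetrix arrays with 1 sample each. The 4 pre-maturation samples (PM) came from immature complexes after stimulation with follicle-stimulating hormone (FSH) alone, the 3 in vitro matured samples (IVM) had FSH and then maturation in culture, and the 4 in vivo matured samples (VVM) had FSH and then maturation within the monkey with human chorionic gonadotropin (hCG). All 3 groups thus carried the FSH stimulation, and PM is no unstimulated control. No age, strain or animal is used here for any sample, and the labels do not say whether arrays of 1 group come from different monkeys, so the p-values reflect the spread among these arrays alone.

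In a growing follicle, granulosa and cumulus cells divide under FSH. After the ovulatory signal they leave the cell cycle, expand their matrix and begin to luteinize. During division, FOXM1 turns on the late cell cycle genes, and condensins and topoisomerase compact the chromosomes. CENP proteins mark the centromere and recruit the kinetochore. Kinesins move chromosomes and bundle the spindle, and securin delays the parting of the sister chromatids until anaphase. The roles given below are those known from human and mouse cells.

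Levels are log2 RMA intensities, where 1 unit is a 2-fold step. Levels of different genes come from different probes and are not set against each other. A gene is called higher or lower when limma's adjusted p is under 0.05, with the adjustment made over all 52766 probe sets. Differences are given with the standard error (SE) of the fit, and n is 4 PM, 3 IVM and 4 VVM arrays throughout. In bulk RNA, fewer dividing cells and less RNA per dividing cell cannot be told apart.

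The arrays themselves differed in some measures that touch these results. The array medians lay between 5.34 and 5.53. The bacterial hybridization control probe sets, added to each hybridization, averaged 10.09 ± 0.21 over the 4 PM arrays, 11.92 ± 0.40 over the 3 IVM arrays and 11.04 ± 0.43 over the 4 VVM arrays (mean ± SD). The ranges of the 3 groups did not overlap. The summed level of 18 measured cumulus and granulosa markers was 16.02 to 16.26 in PM, 15.94 to 16.14 in IVM and 15.88 to 16.15 in VVM. A sum is set by its brightest genes, and of these 18 single markers IVM had 6 higher and 7 lower against PM, and VVM had 6 higher and 9 lower. Of 14 measured oocyte genes, 11 were highest in PM 1, and the summed level of that list ran from 9.72 to 11.49 in PM, against 9.88 to 9.99 in IVM and 9.72 to 10.34 in VVM. The summed level of 14 leukocyte genes ran from 10.64 to 10.83 in PM, 9.91 to 10.25 in IVM and 9.72 to 12.09 in VVM. Singly, 3 of these 14 were higher and 2 lower in IVM against PM, and 8 higher and 2 lower in VVM. Of all genes, 25.0% were higher and 20.9% lower in IVM, and 18.0% and 21.8% in VVM.

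The first question was how the division genes stood before and after maturation in culture. Maturation in culture went with 60 lower and 8 higher members of 115. In all, 59.1% of members and 45.9% of all genes were called. The lower calls made up 52.2% of members, where 20.9% of all genes were lower, and the higher calls 6.96%, where 25.0% of all genes were higher. The median difference of the members was -0.56, beside 0.12 over all genes. At least 2-fold lower were 41 members, where 12.8% of all genes were. The IVM arrays all lay below the PM arrays for 61 members and above them for 11, where 21.0% and 29.4% of all genes did so. Without PM 1, 61 members and 38.6% of all genes were called in either direction, beside 68 and 45.9% with it.

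The same question for maturation in the animal gave a like count. In VVM, 55 members were lower than in PM and 4 were higher, or 51.3% called where 39.8% of all genes were. The lower calls were 47.8% of members, where 21.8% of all genes were lower, and the higher calls 3.48%, where 18.0% were. The median difference was -0.58, beside 0.041 over all genes, and 40 members were at least 2-fold lower, where 11.3% of all genes were. The VVM arrays all lay below PM for 60 members and above it for 6, where 21.1% and 20.8% of all genes did so. Without PM 1, 59 members were called, the same number as with it, while the share of all genes called was 32.2%, beside 39.8%. Both comparisons share the PM arrays, so the 2 counts are not independent of each other.

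These counts move with the hybridization controls. With the control level as a covariate, no member was called between IVM and PM, while 34 had an unadjusted p under 0.05, 33 of them lower, and only 2 of all 14132 genes were called. Under the same covariate, 27 members were called between VVM and PM, 26 of them lower, where 11.2% of all genes were called. The member medians under it were -0.45 for IVM and -0.49 for VVM. The part of the control level in these differences was not tested further.

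**Figure D1:**
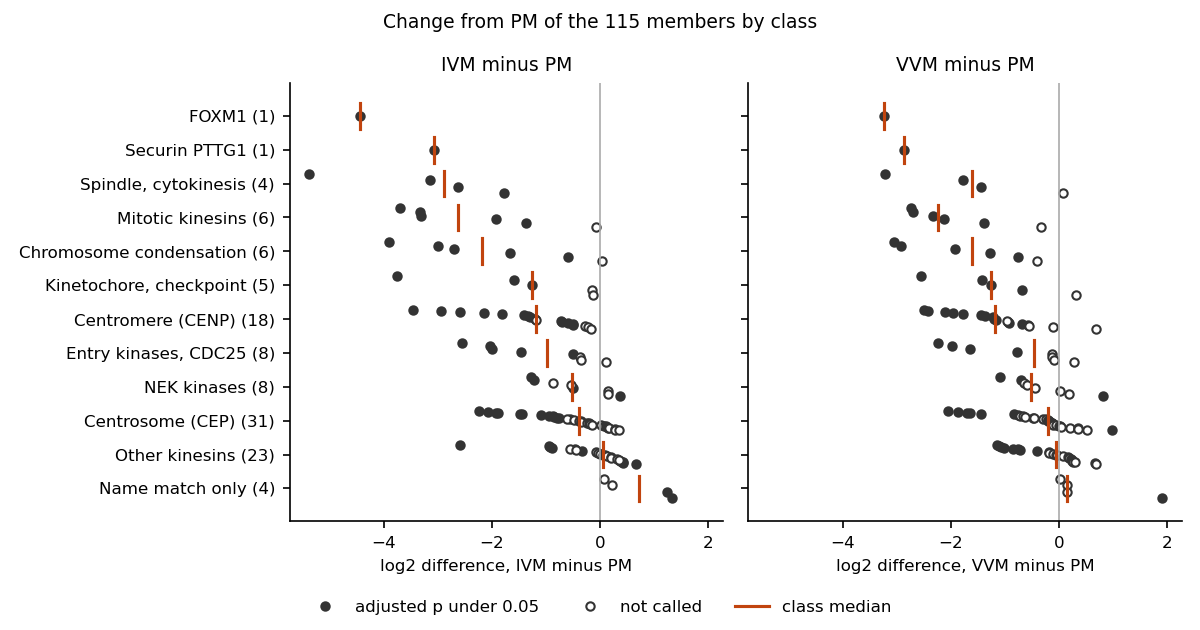
Log2 difference from PM of each of the 115 members, grouped by role with the number of members in parentheses, for IVM (left) and VVM (right). Filled points were called at an adjusted p under 0.05, open points were not, and the vertical bars are class medians. The class medians of the spindle, mitotic kinesin, condensation and centromere genes lie left of 0 in both panels, with TPX2 and CENPU right of 0 in VVM and NCAPH2 in IVM, while the median of the other kinesins lies near 0.

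FOXM1, the transcription factor of the late cell cycle, stood at 9.32, 9.52, 9.36 and 9.35 in the 4 PM arrays, at 4.69, 4.11 and 6.02 in IVM and at 5.42, 7.15, 6.04 and 6.0 in VVM. All matured samples lay more than 2 units below every PM sample, and IVM and VVM overlapped. FOXM1 was lower by a fold of 21.8 in IVM (log2 difference -4.45 ± 0.43 SE, adjusted p = 3.87e-05) and 9.40-fold lower in VVM (-3.23 ± 0.40 SE, adjusted p = 0.00017). It is read from 1 probe set. The IVM level of FOXM1, 4.94 on average, was under the array medians, so its fold there is at best a lower bound.

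Among the chromosome condensation genes, 5 of 6 were lower in IVM and the same number in VVM, where 20.9% and 21.8% of all genes were. The class medians were -2.19 and -1.60. MKI67, the proliferation marker that coats mitotic chromosomes, stood at 10.30, 9.89, 10.05 and 10.11 in PM, at 6.10, 5.43 and 6.99 in IVM and at 6.0, 7.79, 7.18 and 7.19 in VVM. Each matured sample was below each PM sample by over 2 units. The fold was 15.1 lower in IVM and 8.27 lower in VVM (-3.05 ± 0.37 SE, adjusted p = 0.000154), and all 3 probe sets of MKI67 were called lower in both.

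TOP2A, the topoisomerase that untangles sister chromatids, stood at 11.26, 10.57, 11.31 and 10.85 in PM, at 6.67, 8.10 and 9.22 in IVM and at 7.29, 9.97, 9.11 and 9.90 in VVM. The matured samples were all lower but widely spread, with VVM 2 and VVM 4 nearest to PM. The difference was -3.00 ± 0.66 (SE, adjusted p = 0.00471) in IVM and -1.93 ± 0.61 (SE, adjusted p = 0.033) in VVM. The VVM call of TOP2A was lost without PM 1 (adjusted p = 0.0769), PM 3, PM 4, VVM 1 or VVM 3, with differences of -1.34 to -1.98.

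NCAPG, a condensin I subunit, stood at 8.95, 8.74, 8.62 and 8.96 in PM, at 5.57, 5.54 and 7.21 in IVM and at 5.30, 5.95, 5.87 and 6.47 in VVM. It was lower in every matured sample, by a fold of 6.54 for IVM (-2.71 ± 0.38 SE, adjusted p = 0.00033) and of 7.57 for VVM (-2.92 ± 0.35 SE, adjusted p = 0.000135). The condensin II subunits were read singly, with no test between them. NCAPG2 changed by -1.67 and -1.27 and NCAPD3 by -0.59 and -0.75 in IVM and VVM, the NCAPD3 call in IVM being lost without IVM 1. NCAPH2 was not called, with group means of 9.35 in PM, 9.39 in IVM and 8.95 in VVM. Its VVM arrays all lay below PM, at -0.40 (limma adjusted p = 0.054), and 2 of its 4 probe sets were called lower in VVM.

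**Figure D2:**
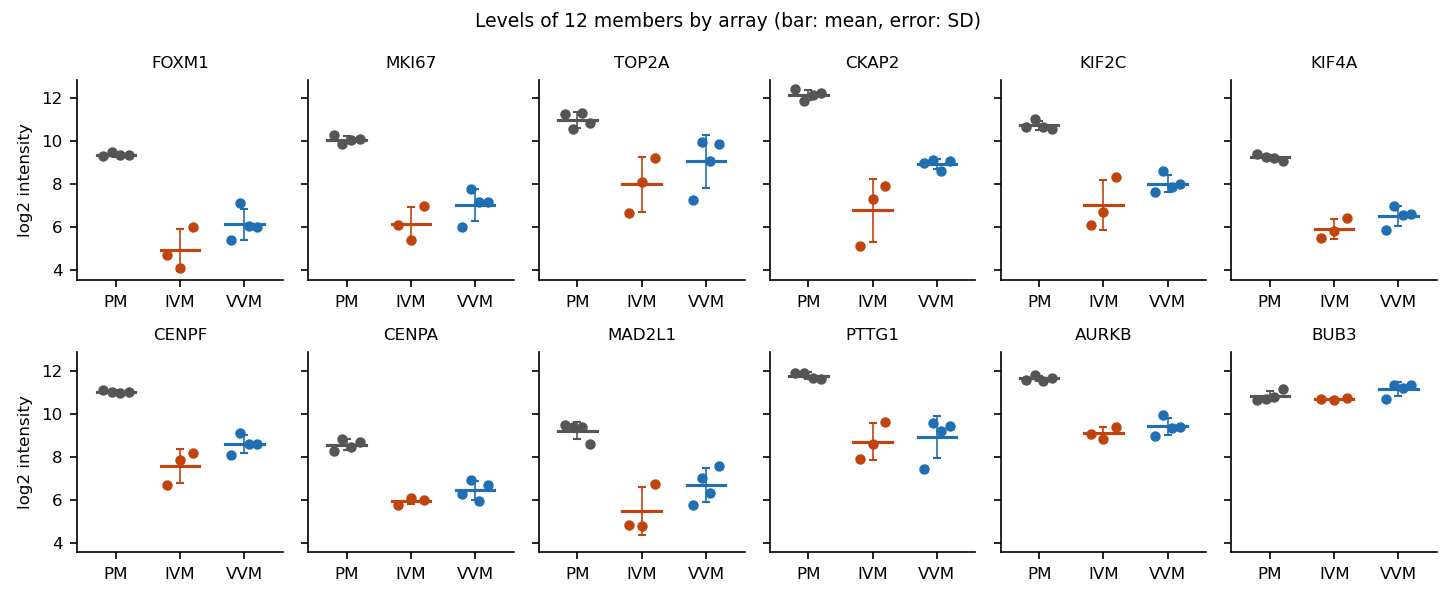
Log2 intensity of 12 members in each array, by group (PM 4, IVM 3 and VVM 4 arrays), with the group mean as a bar and the SD as an error bar. In 11 panels every matured sample lies below every PM sample. BUB3 is the panel where the groups overlap.

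The kinesins were counted by role, with no test between the roles. Of 6 mitotic kinesins, 5 were lower in IVM and the same 5 were lower in VVM, where 20.9% and 21.8% of all genes were. The class medians were -2.62 and -2.23. KIF2C, which takes microtubules apart at kinetochores, stood at 10.66, 11.07, 10.65 and 10.58 in PM, at 6.09, 6.69 and 8.33 in IVM and at 7.65, 8.61, 7.86 and 8.01 in VVM. All matured samples were below the lowest PM sample. It was lower by a fold of 13.0 in IVM (-3.70 ± 0.42 SE, adjusted p = 9.76e-05) and 6.54 lower in VVM (-2.71 ± 0.39 SE, adjusted p = 0.000449).

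KIF4A, a chromokinesin that also organises the central spindle, stood at 9.40, 9.29, 9.22 and 9.09 in PM, at 5.52, 5.82 and 6.46 in IVM and at 5.89, 6.99, 6.57 and 6.61 in VVM. No matured sample reached the PM range, and IVM and VVM overlapped. It was 9.99-fold lower in IVM (adjusted p = 1.26e-05) and 6.66-fold lower in VVM (adjusted p = 2.16e-05). KIF23, a motor of the central spindle and cytokinesis, changed by -3.34 ± 0.39 in IVM and by -2.33 ± 0.36 in VVM. KIF22, a chromokinesin, changed by -1.92 ± 0.28 and -2.13 ± 0.26.

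KIF18A, which limits chromosome oscillation at the metaphase plate, changed by -1.37 ± 0.24 in IVM and -1.38 ± 0.22 in VVM. Its PM mean of 4.75 was already under the array medians. KIF20B, a cytokinesis motor, was not called in either comparison by its brightest probe set. Its group means there were 8.80 in PM, 8.73 in IVM and 8.46 in VVM. Of its 4 probe sets, however, 2 were called lower in IVM and 3 in VVM, with differences down to -0.79 and -1.49.

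The other 23 kinesins were those not placed in the mitotic role here, KIF2A among them. Most of the 23 are known for cargo transport or cilia. They gave 5 higher and 6 lower in IVM and 1 higher and 8 lower in VVM. Of all genes, 25.0% were higher and 20.9% lower in IVM, and 18.0% and 21.8% in VVM. The IVM counts of these kinesins lay near the shares of all genes. The class medians were 0.055 and -0.046. KIF21A, a regulator of microtubule growth, was the member of this class with the largest fall in IVM. It stood at 8.80, 8.95, 8.22 and 9.0 in PM, at 5.80, 6.0 and 6.67 in IVM and at 7.44, 7.66, 7.32 and 8.15 in VVM. The 3 groups did not overlap, and the differences from PM were -2.59 ± 0.26 (SE, adjusted p = 4.95e-05) in IVM and -1.10 ± 0.24 (SE, adjusted p = 0.00593) in VVM, with 1 of 2 probe sets called. With the median of both, the VVM difference was -0.41 and not called (adjusted p = 0.241).

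KIF24, which acts at centrioles, changed by -0.93 ± 0.12 in IVM and -1.15 ± 0.11 in VVM. KIF2A, a relative of KIF2C, changed by -0.94 and -0.76, but another probe set of KIF2A was called higher in both comparisons. In the other direction, KIF5B, the widely expressed heavy chain of conventional kinesin, rose by 0.66 ± 0.16 (SE, adjusted p = 0.00789) in IVM. Its levels were 10.82, 11.08, 11.08 and 10.90 in PM and 11.41, 11.55 and 11.92 in IVM, which do not overlap. The second probe set of KIF5B fell, and with the median of both the difference was -0.68 (adjusted p = 0.0451), so that its direction rests on the probe set chosen.

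Small rises in IVM were called for KIF12, KIF26A, KIF27 and KIF5C, between 0.37 and 0.43. The second probe set of KIF26A was called lower, by 0.59 in IVM and 0.84 in VVM, so its direction rests on the probe set chosen. KIF3C, a subunit of a transport kinesin, rose by 0.67 ± 0.20 in VVM, a call that was lost without PM 2, PM 3 or VVM 4 and with each array centred on its median. That centring also ended the calls of KIF12, KIF26A, KIF27 and KIF5C. The KIF12 call was lost without any 1 of the arrays other than IVM 3, the KIF26A call without any PM array, IVM 1, IVM 2 or VVM 2, and the KIF5C call without PM 1, PM 4, IVM 1 or IVM 2.

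**Figure D3:**
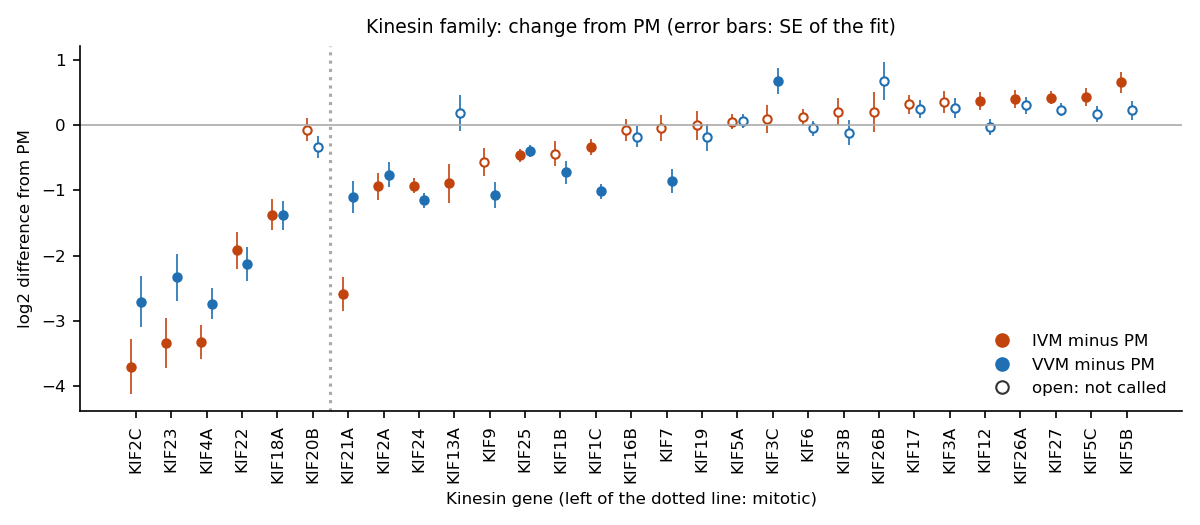
Log2 difference from PM for the 29 kinesin members, in IVM and VVM, with the SE of the fit as error bars; filled points were called. The 6 kinesins placed here as mitotic stand left of the dotted line, and 5 of them fell by more than 1 unit in both groups. Most of the other 23 lie within 1 unit of 0.

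Of 18 genes with CENP names, grouped here as centromere genes, 14 were lower in IVM and none was higher, with a class median of -1.19. The counts in VVM were also 14 and 0, with a median of -1.17. Of all genes, 20.9% were lower and 25.0% higher in IVM, and 21.8% and 18.0% in VVM. These 18 include the centriole gene CENPJ. CENPA, the histone H3 variant that marks the centromere, stood at 8.25, 8.84, 8.43 and 8.67 in PM, at 5.76, 6.09 and 6.0 in IVM and at 6.25, 6.92, 5.92 and 6.68 in VVM. The matured samples were all below PM by more than 1 unit. CENPA was lower by a fold of 6.06 in IVM (-2.60 ± 0.23 SE, adjusted p = 2.17e-05) and 4.31-fold lower in VVM (-2.11 ± 0.21 SE, adjusted p = 4.61e-05).

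CENPF, a large kinetochore protein that builds up before mitosis, stood at 11.12, 10.99, 10.97 and 10.99 in PM, at 6.66, 7.83 and 8.18 in IVM and at 8.08, 9.08, 8.58 and 8.61 in VVM. PM samples lay close together, and every matured sample was lower. The differences of CENPF were -3.46 ± 0.32 (SE, adjusted p = 2.78e-05) and -2.43 ± 0.29 (SE, adjusted p = 0.000142), with both probe sets called in each.

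The constitutive centromere network, which links CENPA chromatin to the outer kinetochore, held several of the other falls. CENPK changed by -2.94 ± 0.33 in IVM and -2.49 ± 0.30 in VVM, with all 3 probe sets called. CENPW changed by -1.81 and -1.77, CENPI by -1.41 and -1.19, CENPO by -1.20 and -1.37 and CENPM by -1.30 and -1.96. With the median of its 3 probe sets, CENPI was at -0.30 in IVM, which was not called (adjusted p = 0.0698). CENPN changed by -2.15 and -1.44, but 1 of its 3 probe sets was called higher in IVM, and their median was higher there, by 0.86. CENPJ, a centriole protein despite its name, fell by 1.34 in IVM, a call that was lost without IVM 1 or IVM 2. CENPU, of the centromere network, was not called against PM, with levels of 8.47, 8.01, 8.14 and 8.75 in PM, 7.90, 6.14 and 7.46 in IVM and 9.92, 8.68, 9.21 and 8.27 in VVM.

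Of the kinetochore and checkpoint genes, 3 of 5 were lower in IVM and 4 in VVM, where 20.9% and 21.8% of all genes were. MAD2L1, the checkpoint protein that delays anaphase, stood at 9.45, 9.39, 9.40 and 8.60 in PM, at 4.84, 4.77 and 6.74 in IVM and at 5.75, 7.0, 6.32 and 7.56 in VVM. PM 4 was the lowest PM sample but still above every matured one. The differences were -3.76 ± 0.51 (SE, adjusted p = 0.000278) and -2.55 ± 0.47 (SE, adjusted p = 0.00203), and both probe sets were called.

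NUF2, SPC24 and SPC25 are 3 of the subunits of the NDC80 complex, which grips microtubules. NUF2 changed by -1.60 ± 0.23 in IVM and -1.25 ± 0.22 in VVM, and SPC25 by -1.26 ± 0.17 and -1.42 ± 0.16. SPC24 was called in VVM alone of the comparisons with PM, where it fell by 0.69 ± 0.13, and SPC24 and SPC25 had PM means of 4.80 and 4.43, under the array medians. BUB3, a checkpoint protein, was not called, with 10.65, 10.69, 10.77 and 11.17 in PM, 10.68, 10.64 and 10.73 in IVM and 10.67, 11.35, 11.19 and 11.35 in VVM, which overlap.

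PTTG1, the securin that restrains separase, stood at 11.91, 11.91, 11.64 and 11.61 in PM, at 7.89, 8.60 and 9.60 in IVM and at 7.44, 9.57, 9.22 and 9.41 in VVM. The matured samples were at least 2 units lower than PM. PTTG1 was lower by a fold of 8.42 in IVM (-3.07 ± 0.49 SE, adjusted p = 0.000749) and 7.26-fold lower in VVM (-2.86 ± 0.45 SE, adjusted p = 0.000791). Of its 4 probe sets, 2 were called in IVM and 3 in VVM.

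Of the 8 entry kinases and CDC25 phosphatases, 5 were lower in IVM and 4 in VVM, where 20.9% and 21.8% of all genes were. AURKB, the kinase of the chromosomal passenger complex, stood at 11.56, 11.81, 11.52 and 11.67 in PM, at 9.03, 8.80 and 9.40 in IVM and at 8.96, 9.93, 9.35 and 9.40 in VVM. All matured samples lay below PM, by a fold of 5.91 in IVM (adjusted p = 1.63e-05) and 4.70 in VVM (adjusted p = 2.16e-05). The second probe set of AURKB was called higher in IVM. CDC25C, a phosphatase that activates CDK1, was 4.0-fold lower in IVM (-2.0 ± 0.15 SE) and 3.12-fold lower in VVM (-1.64 ± 0.14 SE). CDC25A, its relative of the earlier cycle, changed by -0.50 and -0.78, and its IVM call was lost without PM 1, PM 3, IVM 1 or IVM 2. The polo-like kinases PLK2 and PLK3 were not called, with group means between 11.20 and 11.56 and between 8.10 and 8.76. Of the 6 probe sets of PLK2, however, 1 was called higher and 1 lower in IVM against PM, and 1 lower in VVM against PM. Between IVM and VVM, 1 was called higher in IVM.

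AURKA, the spindle pole kinase, stood at 10.69, 9.05, 9.01 and 8.69 in PM, at 6.93, 7.47 and 7.60 in IVM and at 6.92, 7.63, 7.49 and 7.47 in VVM. PM 1 was well above the other PM samples. The differences were -2.03 ± 0.40 (SE, adjusted p = 0.00262) and -1.98 ± 0.37 (SE, adjusted p = 0.00221), and without PM 1 they were -1.59 and -1.54, both still called. Of the 3 probe sets of AURKA, 2 were called lower and 1 higher in IVM.

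AURKC, the Aurora kinase known from germ cells and oocytes, stood at 7.45 in PM 1 and at 5.55, 5.56 and 5.81 in the other PM samples, with 6.14, 6.37 and 6.10 in IVM and 6.08, 6.03, 6.06 and 5.87 in VVM. PM 1 lay above every other array, while the other PM samples lay below every IVM and VVM sample. AURKC was not called in any comparison. PM 1 also held the oocyte transcripts ZAR1 at 8.47, NLRP5 at 8.45, MOS at 7.10 and ZP3 at 9.57. In the other 10 arrays NLRP5 lay between 3.13 and 4.84 and ZP3 between 6.07 and 6.99. The part of oocyte RNA in the AURKA and AURKC levels of PM 1 was not tested.

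**Figure D4:**
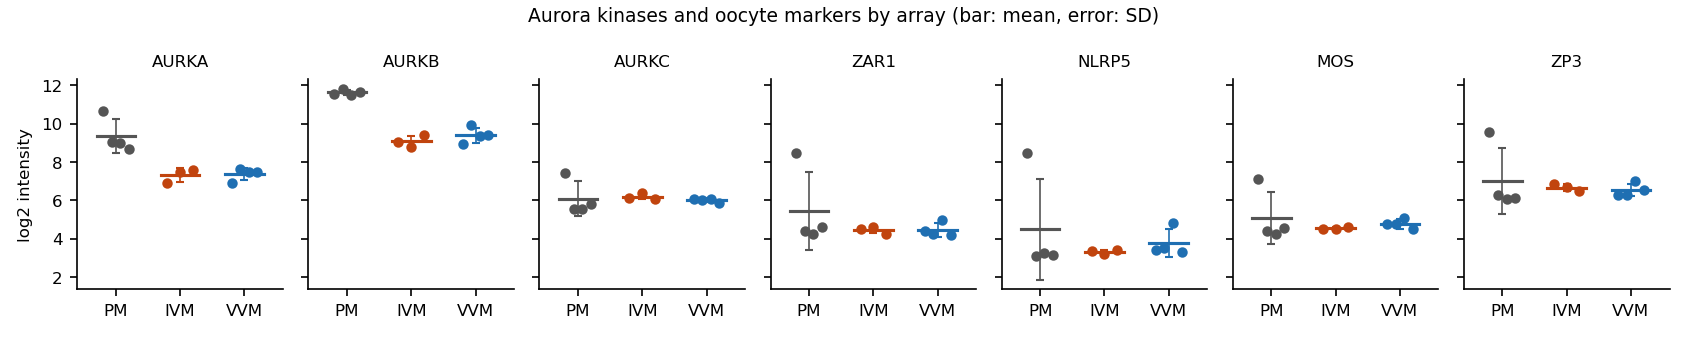
Log2 intensity of the 3 Aurora kinases and 4 oocyte genes in each array, with the group mean as a bar and the SD as an error bar. PM 1 is the single high point in the PM columns of AURKA, AURKC and the 4 oocyte genes, but not of AURKB.

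All 4 spindle and cytokinesis genes were lower in IVM, with a class median of -2.88, and 3 were lower in VVM. Lower calls made up 20.9% of all genes in IVM and 21.8% in VVM. CKAP2, a microtubule protein of the mitotic spindle, had the largest difference of all members between IVM and PM. It stood at 12.44, 11.88, 12.15 and 12.24 in PM, at 5.14, 7.34 and 7.91 in IVM and at 9.0, 9.13, 8.63 and 9.07 in VVM. The 3 groups did not overlap, and the folds were 41.6 lower in IVM and 9.32 lower in VVM (-3.22 ± 0.46 SE, adjusted p = 0.000395), from 1 of 2 probe sets. CKAP5, a microtubule polymerase, changed by -1.77 ± 0.20 in IVM and -1.45 ± 0.18 in VVM, with all 3 probe sets called. ANLN, the scaffold of the cleavage furrow, changed by -3.15 ± 0.32 and -1.77 ± 0.29, with 3 of 4 probe sets called in each.

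Of the 8 NEK kinases, 3 were lower and 1 higher in IVM, and 2 were lower and 1 higher in VVM. Among all genes, 20.9% were lower and 25.0% higher in IVM, and 21.8% and 18.0% in VVM. NEK9, which acts in centrosome separation, changed by -1.28 ± 0.18 in IVM and -0.71 ± 0.16 in VVM, but the median of its 3 probe sets was higher, by 0.39 and 0.10. NEK1 changed by -1.23 in IVM, NEK11 by -1.09 in VVM and NEK2, the centrosomal kinase, by -0.50 in IVM from a PM mean of 4.66. The NEK1 call was lost without IVM 1 or IVM 2, the NEK11 call without VVM 1 or VVM 3, and the NEK2 call without PM 1, PM 3, IVM 2, IVM 3, VVM 3 or VVM 4. NEK7, a partner of NEK9, rose by 0.81 ± 0.23 in VVM, a call that was lost without PM 2, PM 4 or VVM 1 and, at the threshold, with centred arrays. NEK5 rose by 0.36 in IVM, with group means of 4.82 and 5.18, and that call was lost with centred arrays and without PM 1, PM 3, PM 4, VVM 2 or any 1 of the IVM arrays.

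The 31 centrosome genes gave 13 lower and none higher in IVM and 8 lower and 1 higher in VVM, with class medians of -0.38 and -0.19. Of all genes, 20.9% were lower and 25.0% higher in IVM, and 21.8% and 18.0% in VVM. The count of lower centrosome genes in VVM lay near the share of all genes. CEP192, the scaffold of centrosome maturation, stood at 7.88, 7.63, 7.03 and 7.26 in PM, at 4.88, 5.23 and 5.50 in IVM and at 5.17, 6.08, 5.79 and 5.95 in VVM. Matured samples were all lower, and the differences were -2.25 ± 0.26 (SE, adjusted p = 9.34e-05) and -1.70 ± 0.24 (SE, adjusted p = 0.000345). CEP152, which recruits the centriole duplication kinase, changed by -2.08 and -2.05, CEP72 by -1.89 and -1.87, CEP128 by -1.92 and -1.45 and CEP97, a cap protein of centrioles, by -1.49 and -1.64. Only 1 of 3 probe sets of CEP152 was called, and with the median of all 3 the differences were -0.033 and -0.16 (adjusted p = 0.87 and 0.383), so that both calls were lost. CEP120, which lengthens centrioles, was the centrosome gene that rose, by 0.99 ± 0.20 in VVM (adjusted p = 0.00373), and by 0.33 with the median of its 3 probe sets, which was not called (adjusted p = 0.0995). Its levels were 8.62, 8.27, 8.34 and 8.13 in PM and 9.82, 8.83, 9.61 and 9.06 in VVM, which do not overlap.

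Of the 4 members placed in none of these roles, 2 were higher and none lower in IVM, and 1 was higher and none lower in VVM. Higher calls made up 25.0% of all genes in IVM and 18.0% in VVM. AURKAIP1, now known as a protein of the mitochondrial ribosome, stood at 9.43, 9.32, 9.62 and 9.65 in PM, at 10.53, 10.83 and 11.16 in IVM and at 8.96, 9.59, 9.93 and 9.64 in VVM. Only the IVM samples stood apart, and AURKAIP1 rose by 1.33 ± 0.22 there (SE, adjusted p = 0.000877). PTTG1IP, a membrane protein that binds securin, rose by 1.23 ± 0.29 in IVM and 1.91 ± 0.27 in VVM. CKAP4, a protein of the endoplasmic reticulum, and CDC20B were not called, with group means of 12.73 to 12.89 and 4.76 to 4.98.

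The members that fell did so unevenly among the arrays of a group. Of the 60 members lower in IVM, IVM 3 was the highest IVM array for 45 and IVM 1 the lowest for 35. Of the 55 lower in VVM, VVM 1 was the lowest VVM array for 36 and VVM 2 the highest for 27. The order of the arrays was not counted over all genes, so these counts do not show a trait of the members. For the 60, the median SD was 0.22 in PM, 0.36 in IVM and 0.40 in VVM, beside 0.19, 0.23 and 0.21 over all genes. IVM 3 had the lowest hybridization control level of the IVM arrays, 11.46, and VVM 1 the lowest of the VVM arrays, 10.41.

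The third comparison, IVM against VVM, asked where maturation in culture and in the animal differ, and also tests whether the 2 changes from PM differ in size. Of the 115 members, 10 were lower and 6 higher in IVM, or 13.9% in either direction, where 16.7% of all genes were called. The lower share was 8.70%, where 7.63% of all genes were lower, and the higher share was 5.22%, where 9.06% were, so that the members' shares were near or under the background. At least 2-fold lower were 9 members, where 4.85% of all genes were. All IVM arrays lay below all VVM arrays for 15 members and above them for 14, where 11.1% and 17.5% of all genes did so. The median difference was -0.054, beside 0.082 over all genes. The count depended on single IVM arrays: without IVM 3 there were 23 calls, 18 of them lower, without IVM 1 there were 10 and 6, and without IVM 2 there were 8 and 5. The shares of all genes called were then 15.9%, 14.0% and 10.1%. With the hybridization control level as a covariate no member and 2.33% of all genes were called. Of the members, 17 had an unadjusted p under 0.05, 11 of them lower.

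TPX2, a spindle assembly factor that activates AURKA, had the largest of these differences. It stood at 8.72, 8.70, 8.30 and 9.31 in PM, at 5.53, 6.11 and 6.77 in IVM and at 8.37, 8.80, 8.10 and 10.04 in VVM. The IVM samples were all more than 1 unit below every other sample, and PM and VVM overlapped. TPX2 was 6.17-fold lower in IVM than in PM (-2.62 ± 0.43 SE, adjusted p = 0.000924) and 6.46-fold lower in IVM than in VVM (-2.69 ± 0.43 SE, adjusted p = 0.00311). Between VVM and PM the difference was 0.068 ± 0.40 (SE, adjusted p = 0.915), and it was -0.34 without VVM 4. TPX2 is read from 1 probe set.

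CDC25B, a phosphatase that starts entry into mitosis, had the same order of groups. Its levels were 9.98, 9.79, 9.63 and 9.87 in PM, 7.95, 8.20 and 8.89 in IVM and 9.89, 9.58, 9.97 and 9.29 in VVM. IVM lay below both other groups, which overlapped. CDC25B was 2.77-fold lower in IVM than in PM (adjusted p = 0.000567) and 2.53-fold lower in IVM than in VVM (-1.34 ± 0.22 SE, adjusted p = 0.00375). The IVM to VVM calls of TPX2 and CDC25B were lost in no alternative other than the hybridization control covariate.

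From VVM to IVM the difference was -2.16 ± 0.49 (SE, adjusted p = 0.0169) for CKAP2, -1.49 ± 0.26 (SE, adjusted p = 0.0049) for KIF21A and -1.37 ± 0.32 (SE, adjusted p = 0.0177) for ANLN. These 3 fell from PM in both matured groups, and the fall was larger in IVM. The ANLN call was lost without IVM 1 or IVM 2. CENPU fell by 1.86 ± 0.44 (SE, adjusted p = 0.0196) from VVM to IVM, a call that was lost without IVM 2 (-1.34, adjusted p = 0.0752).

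For CEP120 and CEP162, a protein of the ciliary base, the difference of IVM from VVM was -1.14 ± 0.22 and -1.46 ± 0.40. It was -1.08 ± 0.30 for KIF13A, a cargo kinesin, and -0.75 ± 0.22 for CEP20, near the threshold with adjusted p = 0.0377 and 0.0469. The CEP20 call was lost without any 1 array other than IVM 3, the KIF13A call without PM 3 or any 1 of the IVM and VVM arrays, and the CEP162 call without IVM 1, IVM 2, VVM 1, VVM 2 or VVM 4. For CEP20 the IVM and VVM arrays overlapped. With the median of all probe sets of a gene, the calls of CEP120, KIF13A, CEP20 and KIF21A between IVM and VVM were lost, at -0.36, -0.50, -0.53 and -0.86.

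In the other direction, AURKAIP1 was higher in IVM by 1.31 ± 0.22 (adjusted p = 0.00365). CENPV, which helps to place the passenger complex, stood at 10.67, 10.26, 9.70 and 10.29 in PM, at 9.56, 10.19 and 10.27 in IVM and at 8.79, 9.11, 9.15 and 8.99 in VVM. VVM alone stood apart, at -1.22 ± 0.21 from PM (SE, adjusted p = 0.00133), and IVM exceeded it by 1.0 ± 0.23 (SE, adjusted p = 0.0166). KIF7, a ciliary kinesin of Hedgehog signalling, was 0.81 ± 0.20 higher in IVM than in VVM, KIF1C, a cargo kinesin, 0.68 ± 0.12, CENPM 0.66 ± 0.19 and SPC24 0.54 ± 0.14. Without the probe sets that can cross-hybridize, the KIF1C difference was 0.31 (adjusted p = 0.0743) and its call was lost. Leaving out IVM 2 or IVM 3 ended the CENPV call, IVM 2, VVM 1 or VVM 2 the KIF7 call, IVM 1, IVM 3, VVM 1 or VVM 4 the SPC24 call, and PM 3, PM 4, VVM 1, VVM 2, VVM 4 or any 1 IVM array the CENPM call. KIF1C changes direction against PM with the probe set: without the probe sets that can cross-hybridize it was higher than PM, by 0.62 in IVM and 0.30 in VVM.

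**Figure D5:**
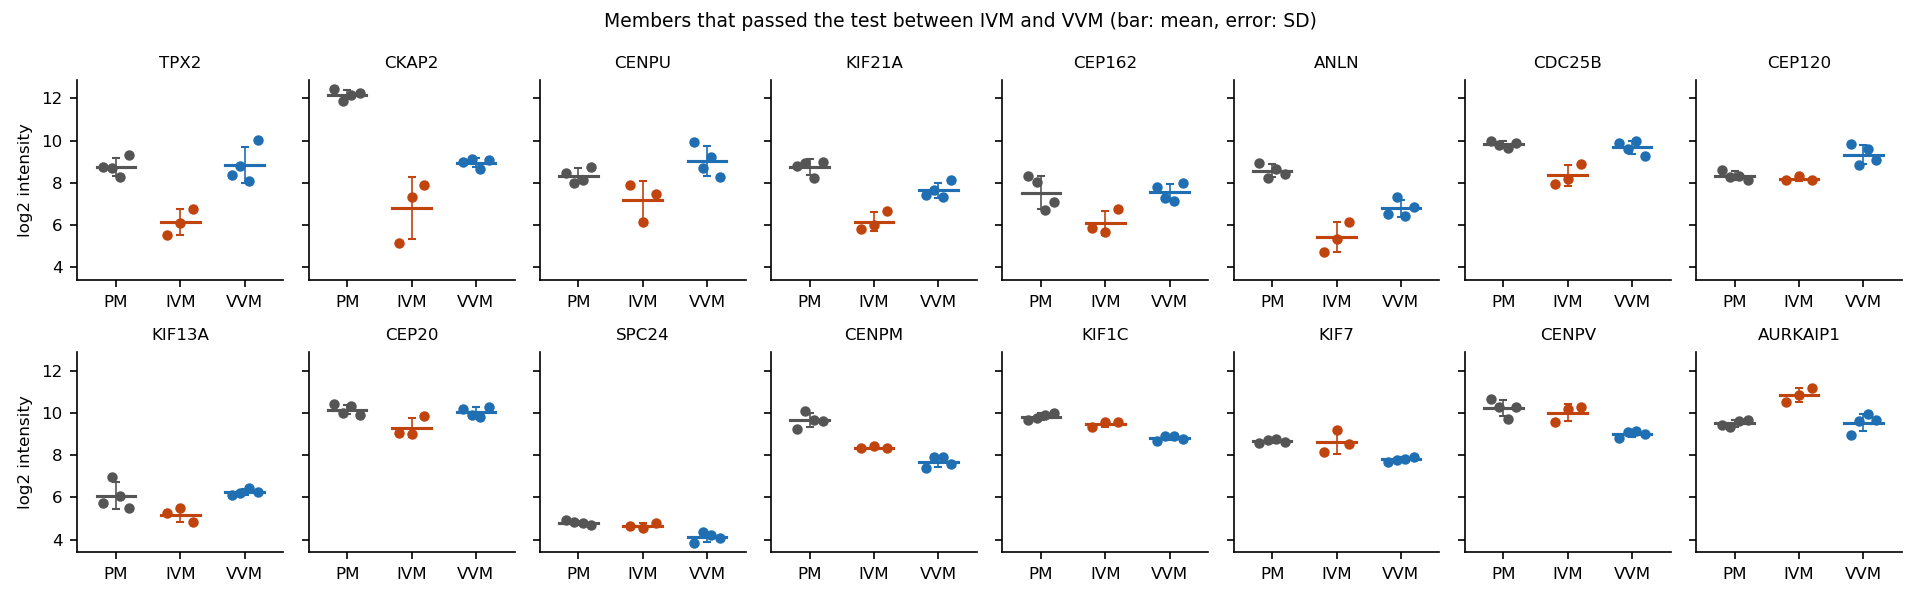
Log2 intensity of the 16 members called between IVM and VVM in each array, ordered from the most negative to the most positive difference, with the group mean as a bar and the SD as an error bar. TPX2, first, has low IVM samples and overlapping PM and VVM samples, and AURKAIP1, last, has high IVM samples alone.

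FOXM1, MKI67, TOP2A, MAD2L1 and CENPF were not called between IVM and VVM, and each had a lower mean in IVM. The difference was -1.21 ± 0.43 (SE, adjusted p = 0.0984) for FOXM1, -0.87 ± 0.40 (SE, adjusted p = 0.197) for MKI67, -1.07 ± 0.66 (SE, adjusted p = 0.332) for TOP2A, -1.21 ± 0.51 (SE, adjusted p = 0.155) for MAD2L1 and -1.03 ± 0.32 (SE, adjusted p = 0.0586) for CENPF. Their IVM and VVM arrays overlapped. Among the mitotic kinesins it was -0.99 ± 0.42 for KIF2C, -1.0 ± 0.39 for KIF23 and -0.58 ± 0.26 for KIF4A, and none of the 6 was called. With 3 and 4 arrays, these values do not show that the groups are alike.

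By the order of the group means, PM was the highest group for 78 of 115 members, or 67.8%, where it was for 34.0% of all genes. IVM was the lowest for 54 members, or 47%, where it was for 24.7% of all genes, and VVM was the lowest for 39, or 33.9%, where it was for 29.6% of all genes.

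Other genes of the same processes, listed by function outside the symbol rule, were also often lower. This list and the replication list below were chosen with earlier results of these data known. The members also hold 23 other kinesins and 31 centrosome genes, so the shares of members and lists are not set against each other, and no test was made between them. Of 59 measured mitotic genes, 42 fell and 5 rose from PM to IVM, and 46 fell and 1 rose from PM to VVM. The medians were -1.56 and -1.46. Of all genes, 20.9% and 21.8% were lower, and 25.0% and 18.0% were higher. CCNB1, the mitotic cyclin, changed by -3.68 and -3.04, CDCA3 by -3.95 and -3.37 and KIFC1, a minus-end spindle motor, by -3.69 and -2.59. WEE1, the kinase that holds CDK1 inactive, changed by -3.68 in IVM and -1.70 in VVM, and CCNB2, another B-type cyclin, by -3.44 and -1.46. Between IVM and VVM the difference was -1.98 for each of them. Of 22 replication fork genes, 18 were lower and 1 higher in IVM, and 17 were lower and 1 higher in VVM, with medians of -1.48 and -1.87. MCM5, a subunit of the replicative helicase, changed by -2.71 and -3.06, and UHRF1, which reads hemimethylated DNA at the fork, by -2.82 and -3.60.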

How the data were processed

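The deposited values are RMA intensities of 11 Affymetrix Rhesus Macaque arrays, made by the authors, on a linear scale. Per the submitters' processing notes they came from Affymetrix Expression Console with RMA, which corrects background, normalizes between arrays and summarises probe sets. Versions are not given in the sources used here. Per the labels' protocols, 50 ng of total RNA per sample went through repeated amplification before biotin labelling.

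The intensities were turned to log2 with no pseudocount. Of 52865 probe sets, 99 controls were left out. Of the other 52766, 24956 carried 1 symbol, 361 several and 27449 none in the array annotation, and 24616 matched a current RefSeq gene. A gene was read from its brightest probe set, and 67 members had more than 1. Where all probe sets are counted, 12 of the 36 members that were lower in IVM and had several probe sets had all of them called lower, and 8 had 1 or more called higher.

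Groups were compared with limma 3.58.1 (R 4.3.3) in 1 model of 3 group means, with 8 residual and 3.30 prior degrees of freedom, two-sided, adjusted by Benjamini-Hochberg over 52766 probe sets. The fit was tested on simulated data. Alternatives changed normalization, filters, probe set choice, threshold, spread, arrays and covariates. Same-numbered arrays correlated between -0.107 and 0.101 in their deviations, so the replicate numbers were not used. The members, roles and lists were chosen with earlier results of these data known. The genes named are the fixed symbols, the 8 members of each role with the largest difference, those called between IVM and VVM or higher than PM, and 8 and 4 genes of the mitotic and replication lists. Marker lists for other cells were read as summed levels. Endothelial genes (9) ran from 8.75 to 9.63 in PM, 8.87 to 8.98 in IVM and 8.80 to 10.26 in VVM, stromal and theca genes (7) from 8.60 to 9.01, 9.48 to 10.57 and 9.12 to 10.58, and red cell genes (3) from 7.98 to 8.92, 7.56 to 7.83 and 8.65 to 10.11. Singly, 5 of the stromal and theca genes were higher and none lower in IVM against PM, and 2 higher and 1 lower in VVM. Endothelial genes had 2 higher and 1 lower in IVM, and 3 and 1 in VVM. Red cell genes had 1 higher and 1 lower in IVM, and 1 and 0 in VVM. Of all genes, 25.0% were higher in IVM and 18.0% in VVM. The part of these other cells in the results was not tested. Background levels per probe were not used, so folds of genes whose mean lies under the array medians may be understated. The number of arrays limits the precision.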

Additional observations from a re-analysis of the deposited data

Results flagged for a closer look

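Single arrays stood apart from the other 3 of their group in 15 of 230 member groups of 4 arrays (PM and VVM), by the gap to the nearest array over the range. Chance alone gives this in about 1 of 20 groups. In PM these were AURKC at 7.45, CEP78 at 7.08 and KIF3B at 9.54 in PM 1, CEP112 at 5.50, KIF20B at 9.15, KIF2C at 11.07 and KIF9 at 9.47 in PM 2, and MAD2L1 at 8.60 in PM 4. In VVM they were PTTG1 at 7.44, CEP68 at 5.00, CEP89 at 6.65 and CDC20B at 5.18 in VVM 1, NEK9 at 9.67 and KIF1B at 8.31 in VVM 2, and KIF19 at 4.90 in VVM 3.

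Oocyte genes stood apart in 11 such groups, 9 of them by PM 1. In PM 1 the levels were 9.57 for ZP3, 8.47 for ZAR1, 8.45 for NLRP5, 7.10 for MOS, 6.96 for OOEP, 6.73 for KHDC3L, 6.31 for BTG4, 5.92 for FIGLA and 5.73 for BMP15. In VVM 3, NLRP5 was at 4.84 and BTG4 at 5.26. Of all 115 members, 34 were highest in PM 1 of the 11 arrays, a count that was not made over all genes. Of these, 2 members, AURKA and AURKC, exceeded every other array by 1 unit or more.

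The change from PM differed between IVM and VVM for 16 members in the limma test, as log2 differences of IVM minus VVM. These were -2.69 for TPX2, -2.16 for CKAP2, -1.86 for CENPU, -1.49 for KIF21A, -1.46 for CEP162, -1.37 for ANLN, -1.34 for CDC25B, -1.14 for CEP120, -1.08 for KIF13A and -0.75 for CEP20. In the other direction they were 1.31 for AURKAIP1, 1.0 for CENPV, 0.81 for KIF7, 0.68 for KIF1C, 0.66 for CENPM and 0.54 for SPC24.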

How the results depend on the processing

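With the hybridization control level as a covariate, members called fell from 68 to 0 for IVM against PM (0 of them lower), from 59 to 27 for VVM against PM (26 lower) and from 16 to 0 for IVM against VVM (0 lower). Of all genes, 11.2% were called under it between VVM and PM, and 2.33% between IVM and VVM. MKI67 then differed by -4.37 between IVM and PM (adjusted p = 0.152) and by -3.29 between VVM and PM (adjusted p = 0.0162). A 2-fold threshold left 43 calls for IVM against PM and 10 for IVM against VVM. Leaving out 1 array at a time gave 52 to 68 calls (48 to 60 lower) for IVM against PM, 56 to 62 (52 to 57 lower) for VVM against PM and 8 to 23 (5 to 18 lower) for IVM against VVM. Of all genes, these fits called 35.8% to 46.6%, 32.2% to 40.9% and 10.1% to 16.0%. Without PM 1, VVM 2 and VVM 3 together, 60, 45 and 11 members were called, and 6 were lower in IVM than in VVM. The shares of all genes called were 34.7%, 21.4% and 9.86%. The replicate number as a block gave 58 (54 lower), 63 (59) and 12 (7) calls, beside 39.7%, 36.5% and 13.7% of all genes. The numbers do not pair the samples by their deviations. Centring each array on its median moved the median of all genes between IVM and PM from 0.12 to -0.027 and gave 69 (66 lower), 60 (58) and 14 (9) calls. Of all genes, 38.8%, 37.1% and 15.5% were then called.

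Some single values changed sign. With the median of all probe sets, the IVM to PM difference was 0.86 for CENPN, 0.88 for CEP57, 0.39 for NEK9, 0.11 for CEP162, 0.14 for KIF1C, -0.094 for KIF26A and -0.68 for KIF5B, the VVM to PM difference was 0.069 for CENPN, 0.21 for KIF9, 0.12 for NEK11 and 0.10 for NEK9, and the IVM to VVM difference of MKI67 was 0.048. With the hybridization control covariate, the IVM to PM difference was 0.78 for CENPU, 0.12 for CEP162, 0.094 for CEP20, 0.012 for CEP57, 0.082 for CEP85, 0.29 for NEK1 and -0.10 for KIF12. Without cross-hybridizing probe sets, KIF1C differed from PM by 0.62 in IVM and 0.30 in VVM. TPX2 in VVM against PM was -0.039 with centred arrays, -0.087 with the GAPDH 3' to 5' covariate, and from -0.34 (without VVM 4) to 0.31 (without VVM 3) with 1 array left out. The cause of these changes was not tested. Counting only alternatives that tested a gene's probe set, and not the 2-fold threshold, 30 of 67 named genes called between VVM and PM kept their call throughout, among them FOXM1, MKI67, KIF4A, CENPA, CENPF, AURKB and PTTG1. By the same count, 0 of 75 did for IVM against PM and 0 of 18 for IVM against VVM, as the hybridization control covariate ended every one of these calls. The control ranges of the 3 groups did not overlap, so group and control level cannot be cleanly told apart. Under that covariate only 2 of all 14132 genes were called between IVM and PM.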
